A study of Caenorhabditis elegans with 12 samples.

Results

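The regions described here are the pair of piRNA-rich domains of *Caenorhabditis elegans* chromosome IV, as they appear in MRG-1 ChIP-seq peak lists. The domains were taken as chromosome IV from 4.5 to 7 Mb (the left domain) and from 13.5 to 17.2 Mb (the right domain) of the ce10 genome build, 6.2 Mb in all. Peaks of 6 samples sharing 1 bp or more were joined into 1 site each, and such a site belonged to the domains if at least 2 of the 6 samples called it and its midpoint lay within these limits. This gave 202 sites, 101 in each domain, out of 6723 sites called in at least 2 samples and 8226 merged sites in all. Another 43 sites in the domains were called in a single sample and were not members. The rule used position and the number of samples with a call, and no fold or width.

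The samples were whole worms at the L4 larval stage, synchronized by bleaching and grown at 25°C on OP50 bacteria, with chromatin precipitated by an antibody against MRG-1. There were 3 samples of the strain SS104, which carries *glp-4(bn2)*, a temperature-sensitive allele that leaves worms without a normal germline at this temperature, and 3 samples of N2, the wild-type strain. The 6 input samples of both strains were not analysed here. Whole-worm chromatin mixes all tissues, so fewer germ cells and less MRG-1 on the DNA of each cell cannot be told apart. The labels give replicate numbers but do not say whether samples came from separate cultures, so the p-values measure the spread between these samples, which may be technical. Each sample held 7073 to 7737 peaks covering 13.6 to 17.6 Mb, and the covered length was 13.6 to 15.7 Mb in *glp-4(bn2)* samples and 15.4 to 17.6 Mb in N2 samples. The lists hold no read depth, so the depth behind each peak is unknown.

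piRNAs are small RNAs that are made in the germline and bound by the Argonaute protein PRG-1, and with it they silence foreign sequences and keep germ cells fertile. In *C. elegans* most of them come from a great number of very short transcription units, many with their own upstream motif, which crowd into broad domains of chromosome IV between and within protein-coding genes. MRG-1 is a chromodomain protein, the worm ortholog of MRG15, whose chromodomain family is known to bind nucleosomes methylated on lysine 36 of histone H3, a mark of transcribed genes. In a RefSeq gene table of the newer WBcel235 assembly, 14714 of 15363 piRNA genes (95.8%) were on chromosome IV. That table was used for names only. The builds differ, so neither the limits of the domains nor any gene at a site was checked against it.

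MRG-1 sites were sparse in the domains. There were 32.6 sites per Mb in the domains, against 82.3 per Mb in the rest of chromosome IV (927 sites in 11.3 Mb) and 76.0 per Mb over the other autosomes. Whole chromosomes varied widely, from 47.6 per Mb on V to 103 on I among the other autosomes, and X held 36.8. The left domain held 40.4 and the right domain 27.3 sites per Mb. Outside the domains, the stretch between them held 76.8 sites per Mb, the part of the chromosome left of them 92.9 and the short tail to the right of them 37.4. Site counts were therefore lower in each domain than in the flank and the central stretch, and the right domain, which lies toward the end of the chromosome, adjoined a tail that was sparse too.

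The share of the DNA lying in peaks gave the same order for both domains together. Peaks covered 84.2, 90.5 and 79.7 kb per Mb of the domains in *glp-4(bn2)* replicates 1, 2 and 3, against 97.4, 105 and 94.98 kb per Mb in N2 replicates 1, 2 and 3. In the rest of chromosome IV they covered 165, 185 and 157 kb per Mb in *glp-4(bn2)* and 196, 220 and 186 kb per Mb in N2. Every sample had less of the domains in peaks than of the rest of the chromosome, with a mean difference of -92.8 kb per Mb (lower in 6 of 6 samples, range -114 to -77.2, two-sided exact sign-flip permutation test, p = 0.03125, the smallest that 6 samples allow). The 6 samples share 1 genome sequence, so this test shows that the difference repeats between samples. It does not compare the domains with other stretches of DNA.

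The domains differed from each other, and the comparison depended on what lay next to them. The right domain had 57.8, 64.05 and 50.8 kb per Mb in peaks in *glp-4(bn2)* and 65.4, 72.5 and 64.1 in N2. The left domain had 123, 130 and 122 kb per Mb in *glp-4(bn2)* and 145, 153 and 141 in N2. The right domain was lower than the left flank, the central stretch and the rest of chromosome IV in all 6 samples. The left domain was lower than the central stretch in all 6 samples (mean difference -86.5 kb per Mb, exact sign-flip permutation test, p = 0.03125), but not lower than the left flank. Its covered length averaged 136 kb per Mb against 134 in that flank (difference 2.00, range -15.8 to 17.8, higher in 4 of 6 samples, two-sided exact sign-flip permutation test, p = 0.71875). The left domain thus had fewer sites per Mb than its flank and a covered length that was not distinguishable from it.

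**Figure D1:**
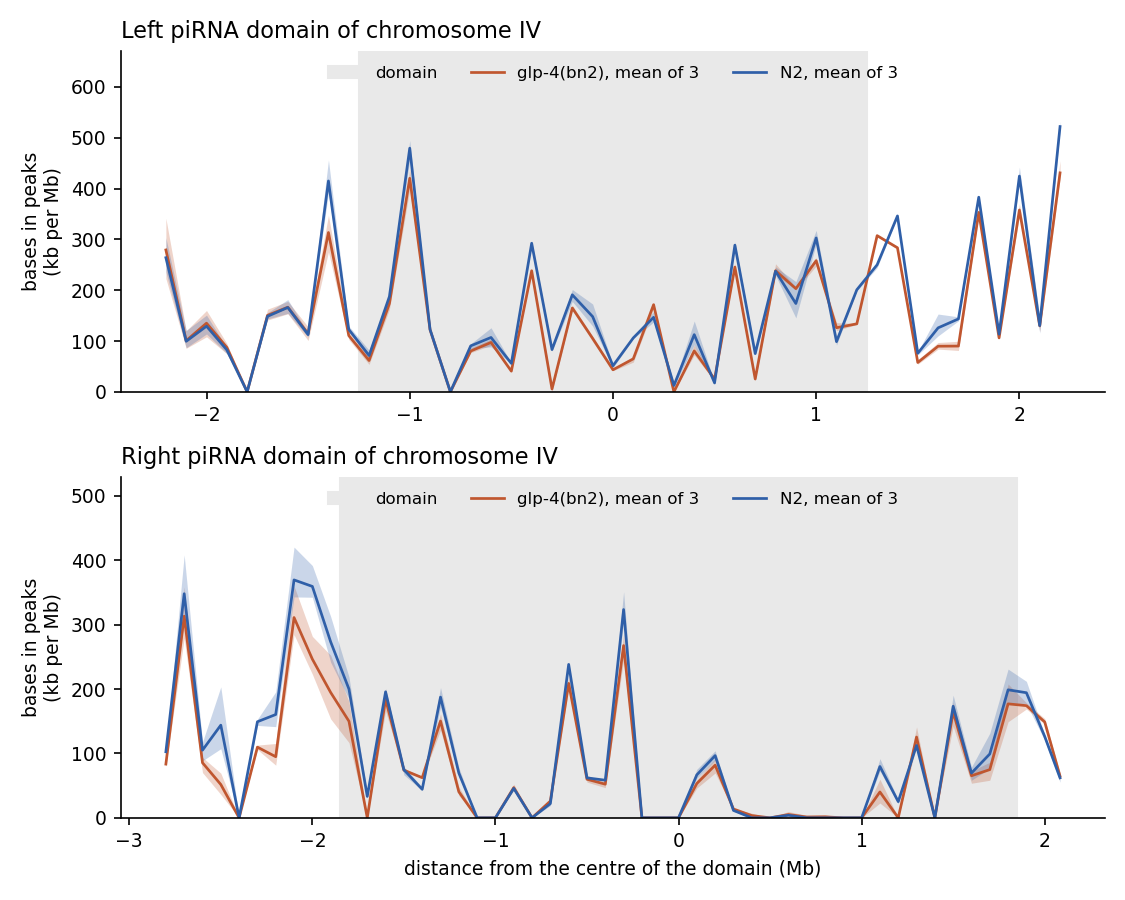
Bases lying in peaks, in kb per Mb of each 100-kb bin, plotted against the distance in Mb from the centre of the left (top) and right (bottom) domain, with the domains shaded. Lines are means of 3 samples of *glp-4(bn2)* or N2 and bands run from the lowest to the highest sample. In the right domain several runs of bins hold almost no called bases in either strain, while isolated bins reach over 200 kb per Mb.

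Long stretches of the domains held no site. Neighbouring sites were separated by more than 50 kb at 31 places in the domains, and these gaps made up 66.6% of their length, against 38 such gaps and 26.2% of the length in the rest of chromosome IV. The share was 46.9% in the left domain and 79.8% in the right, against 37.0% in the left flank and 18.7% in the central stretch. The 2 longest gaps of the right domain ran from 15982548 to 16402050 (420 kb) and from 15050286 to 15467484 (417 kb), and held 2 and 1 sites called in a single sample. The longest gaps of the left domain ran from 4812322 to 5083472 (271 kb) and from 5985719 to 6095334 (110 kb), and no sample called anything in them. The longest gap in the rest of the chromosome was 169 kb. By contrast, the median gap was only 0.984 kb in the right domain, against 1.21 kb in the rest of IV and 5.03 kb in the left domain. Members of the right domain thus sat in tight groups with long empty stretches between the groups. In bins of 0.5 Mb, the right domain held between 6 sites (16 to 16.5 Mb) and 26 sites (13.5 to 14 Mb), and the left domain between 16 and 25.

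**Figure D2:**
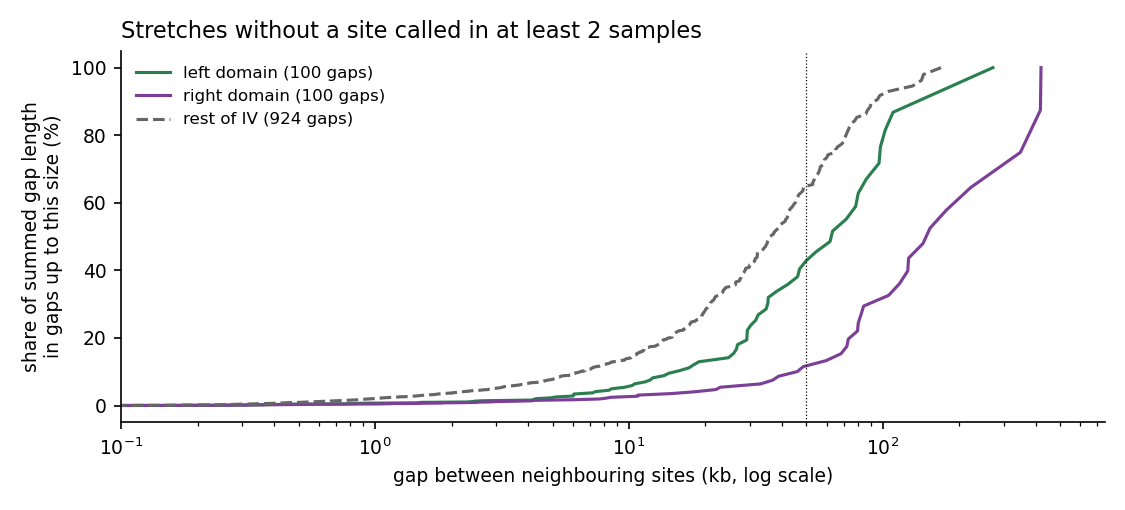
Share of the summed gap length (%) that lies in gaps up to the size on the horizontal axis (kb, log scale), for the 100 gaps between neighbouring sites of the left domain, the 100 of the right domain and the 924 of the rest of chromosome IV. The dotted line marks 50 kb, and the curve of the right domain lies furthest to the right, with gaps of up to 420 kb.

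The sites that were present ranked high. A fold is the enrichment that the peak caller gave at the summit of a peak. To avoid comparing folds between lists, each site was given, in each sample that called it, the percentile of its highest fold among all peaks of that list. The mean percentile of domain sites was 61.8, 63.2 and 66.7 in *glp-4(bn2)* replicates 1, 2 and 3, and 60.3, 65.0 and 62.5 in N2. Sites in the rest of chromosome IV averaged 53.8, 53.9 and 55.0 in *glp-4(bn2)* and 52.5, 55.6 and 53.4 in N2. Domain sites were higher in 6 of 6 samples, by 9.21 percentile points on average (range 7.80 to 11.6, two-sided exact sign-flip permutation test, p = 0.03125). The difference was 12.1 points for the left domain and 6.58 for the right, again in all 6 samples. Against the central stretch alone it was 5.45 points for both domains and 2.82 for the right domain (range 0.188 to 7.88).

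A wide site that merges several peaks takes the highest of their folds, and sites in the domains were wider, so the peaks were also ranked one by one. Peaks of the domains fell in the top 10% of their list in 18.5%, 19.1% and 19.4% of cases in *glp-4(bn2)* and in 18.8%, 20.0% and 18.3% in N2. The shares in the rest of IV were 10.3%, 10.2% and 10.8% in *glp-4(bn2)* and 9.88%, 10.5% and 10.1% in N2. No sample of either strain overlapped between the regions (6 of 6 higher in the domains, exact sign-flip permutation test, p = 0.03125). The left domain had 23.4% of its peaks in the top 10% on average and the right domain 14.6%. The median fold of single peaks was 2.65 in the domains against 2.24 in the rest of the chromosome, as means over the 6 samples. Such comparisons between the domains and the rest of IV covered 7 measures. These were covered length, peaks per Mb, median fold, median peak width and share in the top 10%. The others were mean percentile over all sites and over sites called in all 6 samples. All 7 gave p = 0.03125 by the exact sign-flip permutation test, the smallest that 6 samples allow. Benjamini-Hochberg adjustment over the 7 could therefore only return 0.03125. The measures come from the same peaks and are not independent.

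**Figure D3:**
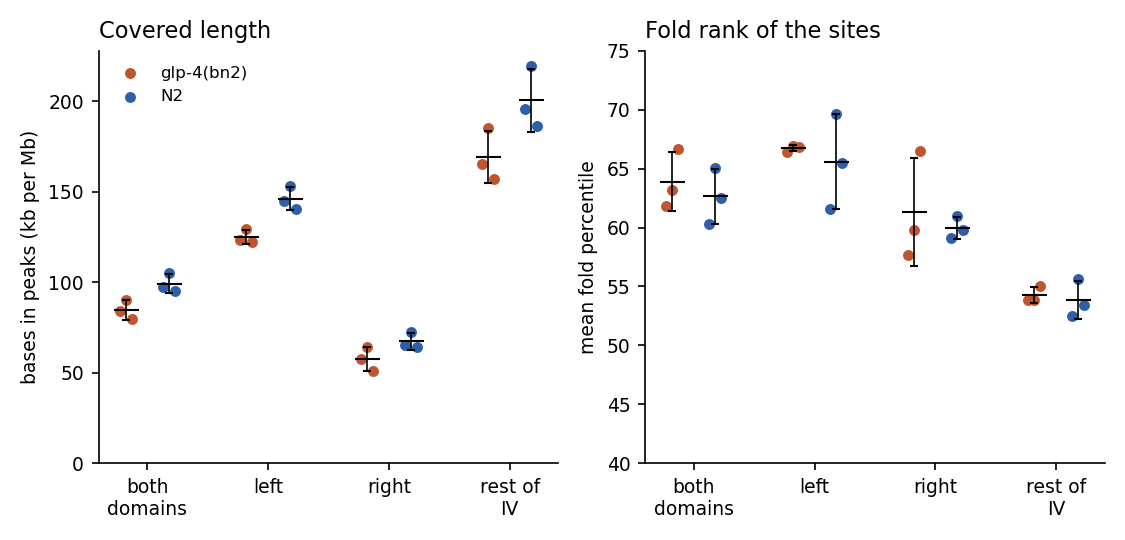
Bases in peaks (kb per Mb, left panel) and mean fold percentile of sites (right panel, axis starting at 40) in both domains, the left domain, the right domain and the rest of chromosome IV. Points are the 3 samples of *glp-4(bn2)* and of N2, and bars are means ± SD. For both domains together the covered length lies below, and the mean percentile above, the rest of the chromosome in all 6 samples.

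Width set the domains apart less evenly. The median member was 1769.5 bp wide, against 1468 bp in the rest of chromosome IV, and 49 of 202 members (24.3%) were wider than 5 kb, against 156 of 927 (16.8%). The central stretch alone had a median of 1984 bp and 22.6% of sites over 5 kb, and the left flank 1116.5 bp and 9.33%. These 49 sites held 63.8% of all bases in domain sites, against 55.1% for their counterparts in the rest of IV. The left domain carried most of this, with a median of 2513 bp and 31 sites over 5 kb, while the right domain had a median of 1428 bp and 18 such sites. Single peaks had a median width of 1320 bp in the domains and 972 bp in the rest of IV as means over the samples (wider in 6 of 6). Against the central stretch, with 1278 bp, they were wider in 4 of 6 samples (exact sign-flip permutation test, p = 0.15625), and those of the right domain were narrower there in all 6.

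The widest member was also among the highest ranked. It lies on IV from 5354133 to 5375367 in the left domain, is 21235 bp wide, and had highest folds of 9.60, 11.5 and 9.33 in *glp-4(bn2)* replicates 1, 2 and 3 and of 10.6, 12.0 and 9.35 in N2. The next by width were IV from 4792911 to 4812321 (19411 bp) and from 4739241 to 4755793 (16553 bp), also in the left domain. The first of these borders the longest gap of the left domain. Its folds were 6.40, 8.10 and 6.41 in *glp-4(bn2)* and 8.71, 8.29 and 8.27 in N2. Its mean percentile was 94.8 in *glp-4(bn2)* and 96.6 in N2, and the samples did not overlap.

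The member with the highest mean percentile over the 6 samples lay in the right domain, from 16857351 to 16867185. Its folds were 11.0, 12.6 and 9.19 in *glp-4(bn2)* and 12.5, 11.0 and 12.0 in N2, all above the 99th percentile of their lists. Sites from 4739241 to 4755793, from 14763915 to 14774411 and from 5158633 to 5162067 came after it and the widest member, with mean percentiles between 99.1 and 99.4. In these 5 sites the 2 strains differed by at most 0.366 percentile points. Their lowest folds over the 6 samples were 6.93 to 9.33. These sites were chosen for high ranks in all samples, which leaves little room for a difference in rank.

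The strains were then compared within the domains, which asks whether MRG-1 sites in these stretches were called less often in worms without a normal germline. piRNA genes are transcribed in the germline, but no site was placed relative to any of them. The covered length averaged 84.8 ± 5.40 kb per Mb in *glp-4(bn2)* and 99.1 ± 5.26 in N2 (SD, n = 3 each), a difference of -14.3 kb per Mb. The samples did not overlap (p = 0.1 by a two-sided exact permutation test, which is the lowest p that 3 samples against 3 can give, and 0.35 after adjustment over 7 measures). In the rest of chromosome IV the mean was 169 ± 14.5 kb per Mb in *glp-4(bn2)* and 200 ± 17.2 in N2, a difference of -31.3 (exact permutation test, p = 0.1). As a share, the domains had 0.509, 0.489 and 0.508 of the covered length per Mb of the rest of IV in *glp-4(bn2)*, and 0.497, 0.479 and 0.510 in N2. These ratios overlapped and differed by 0.0065 in the mean (p = 0.7 by the same exact permutation test, n = 3 each), so the lower covered length of *glp-4(bn2)* samples in the domains was not distinguishable in proportion from that in the rest of the chromosome. The *glp-4(bn2)* lists were shorter in bases over the whole genome, and the part of this in the difference was not tested.

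Ranks were compared in the same way, and with 3 samples against 3 no difference could reach p below 0.1. The mean percentile of domain sites was 63.9 ± 2.51 in *glp-4(bn2)* and 62.6 ± 2.36 in N2 (SD, n = 3 each; p = 0.6 by the exact permutation test). The excess over the rest of IV differed by 0.852 points between the strains (exact permutation test, p = 0.5, adjusted 0.7 over 7 measures), less than the spread between samples, and its sign changed when *glp-4(bn2)* replicate 3 was left out (-0.248). Over the members called in all 6 samples, the mean percentile was 75.1 ± 1.22 in *glp-4(bn2)* and 77.9 ± 0.522 in N2, without overlap (difference -2.81, exact permutation test, p = 0.1, adjusted 0.35, n = 3 each). The domains differed in this. In the left domain the means were 79.3 in *glp-4(bn2)* and 80.1 in N2, with overlap (-0.855, exact permutation test, p = 0.4). In the right domain they were 71.1 and 75.8, without overlap (-4.70, p = 0.1 by the same exact permutation test). Outside the domains the lean had the same direction, with 63.9 in *glp-4(bn2)* and 68.1 in N2 in the rest of IV (-4.24) and 67.7 in *glp-4(bn2)* and 71.0 in N2 in the central stretch (-3.37), each at p = 0.1 by the same exact permutation test.

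By calls, 16 members were found only in *glp-4(bn2)*, that is by 2 or 3 samples of this strain and by none of N2, and 40 only in N2. Merging only the 250 bp to either side of every summit gave 43 *glp-4(bn2)*-only and 59 N2-only members. Requiring calls in all 3 samples of the strain gave 10 and 30. The counts by summit windows come without a share over all sites, so they do not compare the domains with other sites. The shares in this paragraph are for peaks merged over their full length. The *glp-4(bn2)*-only share was 7.92% (95% Wilson interval 4.93% to 12.5%), against 7.44% (5.92% to 9.31%, 69 sites) in the rest of chromosome IV and 10.3% of all 6723 sites. The N2-only share was 19.8% (14.9% to 25.8%), against 16.2% (14.0% to 18.7%, 150 sites) in the rest of IV and 15.2% of all sites. The whole-genome shares include the X chromosome, where 33.8% of sites were *glp-4(bn2)*-only and 2.46% N2-only. Over the autosomes other than IV, the shares were 7.79% *glp-4(bn2)*-only and 16.6% N2-only. Within the rest of IV, the central stretch had 9.42% *glp-4(bn2)*-only and 19.0% N2-only sites, close to the N2-only share of the domains. The left flank had 5.26% *glp-4(bn2)*-only and 12.9% N2-only sites. The domains exceeded the rest of IV by 0.477 percentage points for *glp-4(bn2)*-only sites (95% Newcombe interval -3.05 to 5.28) and by 3.62 points for N2-only sites (-1.89 to 10.1). The intervals cover counting error only and treat sites as independent, which they are not. Members called in all 6 samples made up 55.4% (112 sites), against 54.4% in the rest of IV and 53.2% of all sites, and the remaining 34 members were called in both strains but not in all samples.

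The left domain had the higher N2-only share. It held 11 *glp-4(bn2)*-only sites (10.9%) and 25 N2-only sites (24.8%, 17.4% to 34.0%), and the right domain held 5 *glp-4(bn2)*-only (4.95%) and 15 N2-only sites (14.9%, 9.21% to 23.1%). The N2-only share of the left domain exceeded that of the rest of IV by 8.57 points (0.769 to 18.1). The difference was 5.71 points with the central stretch alone as the comparison and 4.37 with each limit moved outward by 0.25 Mb, and it ran from 3.36 without *glp-4(bn2)* replicate 2 to 13.0 without N2 replicate 2. For the right domain the difference to the rest of IV was -1.33 points (-7.50 to 7.18), and the left domain minus the right gave 9.90 points (-1.15 to 20.7). Some N2-only sites of the left domain were close neighbours and each counts as 1 site here. Examples are those from 5483732 to 5484574, from 5484848 to 5486263 and from 5486541 to 5488706. The part of such runs in the share was not tested. Sites are not replicates of a condition, so no test was run on these shares.

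**Figure D4:**
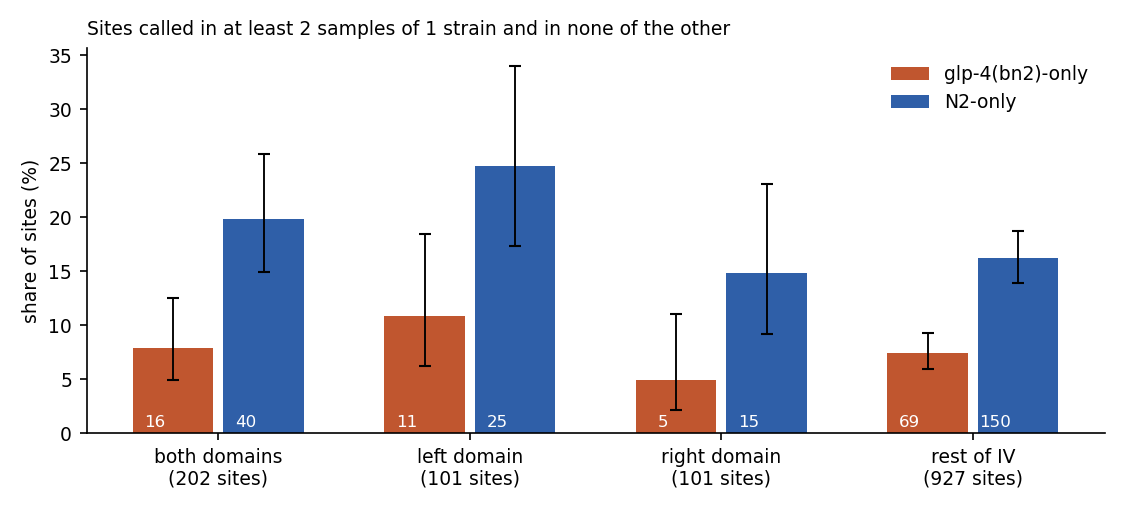
Share of sites (%) called in at least 2 samples of 1 strain and in none of the other, in both domains, the left domain, the right domain and the rest of chromosome IV, with *glp-4(bn2)*-only left of N2-only. Bars start at 0, error bars are 95% Wilson intervals for counting error, and the number in each bar counts its sites. The N2-only bar is the higher in every region.

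Counted per Mb rather than per site, strain-only sites were thinner in the domains, as all sites were. There were 2.58 *glp-4(bn2)*-only and 6.45 N2-only sites per Mb of the domains, against 6.12 *glp-4(bn2)*-only and 13.3 N2-only sites per Mb of the rest of IV. Sites called in all 6 samples came to 18.1 per Mb in the domains and 44.7 in the rest. All 3 samples of the strain made the call at 10 of the 16 *glp-4(bn2)*-only members, against 38 of 69 such sites in the rest of IV and 388 of 690 in the genome. For N2-only sites this was 30 of 40 in the domains, against 86 of 150 in the rest of IV and 604 of 1025 in the genome.

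Strain-only sites were weak and narrow beside the shared ones. The median fold of *glp-4(bn2)*-only members was 1.68, 1.69 and 1.84 in *glp-4(bn2)* replicates 1, 2 and 3. That of N2-only members was 1.82, 2.11 and 2.06 in N2. Members called in all 6 samples had medians of 3.78, 4.59 and 3.70 in *glp-4(bn2)* and 4.61, 4.84 and 4.69 in N2, above the strain-only medians in every sample. Their median width was 4018 bp, against 786.5 bp for *glp-4(bn2)*-only and 910.5 bp for N2-only members. A site called in all 6 samples had to pass the calling threshold in every list, and its width spans the peaks of more lists. The grouping itself thus favours higher folds and widths in shared sites, and its part in these differences was not tested. The lists give no value where there is no peak, so the level of a strain-only site in the other strain is not known.

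Among the N2-only members, 5 were chosen that all 3 N2 samples called and whose lowest N2 fold was highest. The first lies on IV from 5486541 to 5488706 in the left domain, with no peak in any *glp-4(bn2)* sample and folds of 4.19, 3.43 and 3.27 in the 3 N2 samples, and it was 45.1 kb from the nearest site called in all 6 samples. The next, from 13685059 to 13687049 in the right domain, had folds of 3.17, 4.10 and 2.90 and stood 89.0 kb from such a site. These N2 folds lay at the 65.5th percentile of their lists or above, well over the median peak. The other 3 lie in the left domain, from 6977470 to 6979286, from 6974211 to 6977209 and from 5811741 to 5814408, with lowest folds of 2.85, 2.84 and 2.78. The first 2 of these are neighbours separated by less than 1 kb.

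The 5 *glp-4(bn2)*-only members chosen in the same way had lower folds. They were the top of 10 members called in all 3 samples of their strain, against 30 for N2, so the 2 lists do not compare the strains. The site from 15513395 to 15514730 in the right domain had folds of 2.68, 2.79 and 2.01 in *glp-4(bn2)* replicates 1, 2 and 3, and the site from 4787096 to 4787792 in the left domain 2.03, 2.18 and 1.98. In N2 no sample called either. The remaining 3, from 6567908 to 6568418, from 16664257 to 16665652 and from 6565644 to 6566424, had lowest folds of 1.81, 1.68 and 1.63. All 5 had a site called in all 6 samples nearby, at 5.12, 5.12, 11.2, 5.98 and 9.62 kb in the order named.

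N2-only members of the left domain often stood alone. For N2-only members of the left domain, the median distance to the nearest site called in all 6 samples was 25.8 kb. Of these 25 members, 14 were more than 10 kb away from such a site. In the right domain the median was 1.77 kb, with 4 of 15 more than 10 kb away. Over both domains 45.0% of N2-only members were that far, against 17.3% of the N2-only sites in the rest of IV, where the median distance was 2.11 kb. For *glp-4(bn2)*-only sites the shares were 25.0% in the domains (4 of 16) and 30.4% in the rest of IV (21 of 69), with 1 member of the right domain 334 kb away. Sites of every kind were also sparser in the domains, as given above, and the part of density in these distances was not tested.

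Strain differences also lay inside shared sites. In the domains, 21.9 kb were covered in 2 or 3 samples of *glp-4(bn2)* and none of N2, which is 3.38% of the bases covered in 2 or 3 samples of either strain. The reverse held for 90.6 kb (14.0%) that only N2 samples covered. The shares in the rest of IV were 4.20% for *glp-4(bn2)* and 14.4% for N2. Of the N2-only bases, 55.6% in the domains lay outside N2-only sites, at the edges or in the gaps of sites that *glp-4(bn2)* samples also called, against 65.7% in the rest of IV. The overlap of called bases (bases shared over bases called in either sample) averaged 0.848 ± 0.0145 among *glp-4(bn2)* samples, 0.874 ± 0.0252 among N2 samples (SD, n = 3 pairs each) and 0.732 ± 0.0258 between strains (SD, n = 9 pairs) in the domains. In the rest of IV the overlap was 0.809 among *glp-4(bn2)* samples, 0.839 among N2 samples and 0.697 between strains, so samples of the same strain overlapped more than samples of different strains in both regions.

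Among the 112 members called in all 6 samples, the percentiles of the 3 *glp-4(bn2)* samples were all above those of the 3 N2 samples at 18 (16.1%), and all below at 35 (31.3%). Over all 3578 sites of the genome called in all 6 samples, 15.5% were higher in *glp-4(bn2)* in this way and 25.6% higher in N2. In the rest of IV 10.5% were higher in *glp-4(bn2)* and 28.0% in N2, and over the autosomes other than IV 10.8% were higher in *glp-4(bn2)* and 27.4% in N2. Of the 18 sites ranked higher in *glp-4(bn2)*, 14 lay in the left domain (25.5% of its 55) and 4 in the right (7.02% of its 57), while the 35 ranked higher in N2 fell 17 and 18. The median difference over the 112 sites was -1.95 percentile points (*glp-4(bn2)* minus N2), and -2.61 in the rest of IV.

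**Figure D5:**
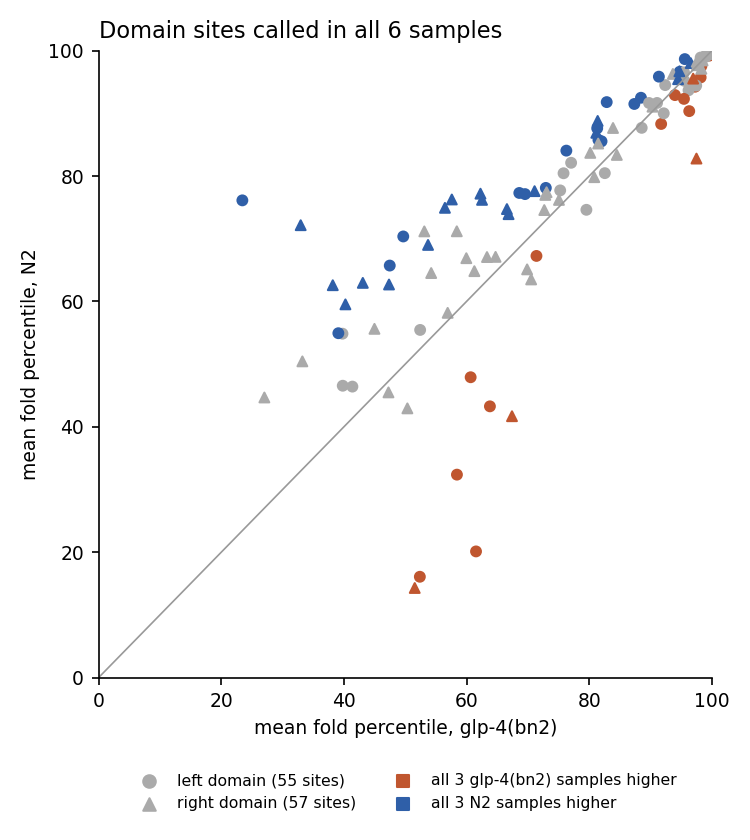
Mean fold percentile in *glp-4(bn2)* (horizontal) and in N2 (vertical) for the 112 domain sites called in all 6 samples, with circles for the 55 of the left and triangles for the 57 of the right domain. Coloured points are sites at which the 3 samples of 1 strain all ranked above the 3 of the other (18 for *glp-4(bn2)*, 35 for N2), grey points overlap, and the line marks equal rank. Near the top of both axes most points lie close to the line, and most sites far from it lie at lower ranks.

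The site with the largest lean toward *glp-4(bn2)* among these lies from 6888600 to 6894334 in the left domain. Its folds were 2.17, 3.19 and 2.71 in *glp-4(bn2)* replicates 1, 2 and 3 and 1.90, 1.59 and 1.68 in N2, with a mean percentile of 61.6 in *glp-4(bn2)* and 20.1 in N2. Sites from 13972139 to 13974176 in the right domain and from 5982370 to 5985718 in the left followed with differences of 37.3 and 36.3 points. The site from 5982370 borders the gap from 5985719 to 6095334. The neighbour of the first of these at a distance of 0.311 kb, from 13974488 to 13979258, leaned the same way by 25.7 points, and the site from 5747608 to 5749805 by 26.1.

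The largest lean toward N2 was at IV from 4760921 to 4763176 in the left domain, with folds of 1.71, 2.01 and 1.66 in *glp-4(bn2)* and 3.69, 4.66 and 3.35 in N2, a difference of -52.7 points. It was followed by the site from 14067924 to 14070192 in the right domain (-39.2 points), with folds of 1.94, 2.31 and 1.63 in *glp-4(bn2)* and 3.35, 3.69 and 3.21 in N2. Differences of -24.4, -20.7 and -19.9 points were found at the sites from 13509813 to 13512289, from 4697008 to 4698955 and from 13500280 to 13503299. These sites were chosen for their differences, so the values are a description.

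The domains were also set beside windows at the same relative positions of the other autosomes, because the right domain lies on a chromosome arm. The covered length per Mb inside over outside these windows ranged over the 6 samples from 0.479 to 0.510 on IV, 0.936 to 0.987 on I, 0.897 to 0.993 on II, 1.05 to 1.11 on III and 0.675 to 0.750 on V. For the left window the ratio was 0.698 to 0.781 on IV and between 1.10 and 1.63 on the others. For the right window it was 0.324 to 0.350 on IV and 0.323 to 0.512 on V, with 0.656 to 0.857 on I, II and III. Within a sample, the right-window ratio was lower on IV than on V in 5 of 6 samples and nearly equal in *glp-4(bn2)* replicate 3 (0.324 on IV and 0.323 on V). The left-window ratio was below 1 on IV and above 1 on the 4 other chromosomes in all samples. The mean percentile inside minus outside was 7.80 to 11.6 points on IV and lay between -9.13 and 0.719 on the others. With 4 other chromosomes these are descriptions without a test.

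The limits themselves cut between called sites. Just inside and outside 4.5 Mb lie sites from 4508491 to 4513937, with folds of 3.64 to 7.30 over the 6 samples, and from 4468252 to 4470910, with 2.34 to 4.88. At 7 Mb the last site inside is the N2-only site from 6977470 to 6979286 and the first outside is the site from 7012980 to 7016874, with folds of 4.55 to 6.0. At 13.5 Mb the neighbours are 13500280 to 13503299 inside (2.02 to 3.002) and 13498934 to 13499993 outside (1.79 to 3.04), less than 1 kb apart. At 17.2 Mb they are 17125180 to 17126427 inside (2.55 to 4.21) and 17249788 to 17255047 outside (5.46 to 7.95).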

How the data were processed

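Peak lists of the 3 *glp-4(bn2)* and 3 N2 MRG-1 ChIP samples were used. The authors aligned paired-end reads to ce10 with Bowtie2 2.3.2 and called peaks in each sample separately with MACS2 2.1.0 at a q-value of at most 0.05, extending reads to 300 bp. The control used for calling is not given in the sources used here. Each deposited list gives a peak's position, summit, score, fold enrichment (a ratio), and −log10 p-value and −log10 q-value. The highest q-value in any deposited list was 0.0498. Folds and q-values as deposited depend on depth, which the lists do not hold, so folds were ranked within each list.

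From these lists, peaks were merged at 1 bp of overlap with Python 3.11.15 (numpy 2.4.6, pandas 2.3.3, scipy 1.17.1), and coordinates are given from 1. Comparisons of strains used exact permutation tests (two-sided) over samples, and regions by exact sign-flip permutation tests over within-sample differences. Intervals (95%, Wilson or Newcombe) cover counting error only. Named sites were the 5 strongest called only in 1 strain (in all 3 of its samples, by their lowest fold), the 5 of highest mean percentile, the 3 widest, the 5 leaning most to each strain without overlap, those at the limits and the 2 longest gaps per domain. The domains, members and rules were chosen with earlier results of these data known. The code was tested on simulated peaks. Alternatives were stricter q-values, overlap of 150 bp, windows of 250 bp around summits, equal list lengths, calls in all 3 samples, shifted limits, single domains, another comparison stretch, and each sample left out. No genome or annotation of ce10 was used, so no gene or sequence is given at a site.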

Additional observations from a re-analysis of the deposited data

How the results depend on the processing

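With all samples kept, 94 of 104 recomputed values kept direction and call, or for counts and shares stayed within 1.5 times or the counting interval, and 52 of 66 did with 1 sample left out. The call was whether p fell below 0.05. The strain tests cannot reach this with so few samples, so only their direction could change. The difference between strains in the excess percentile of the domains (0.852) turned to -0.155 at a q-value of at most 1e-05 (p = 0.8, exact permutation), -0.195 with equal numbers of top peaks (p = 0.9) and -0.0239 with the limits moved outward (p = 1), and ranged from -0.248 to 2.03 with 1 sample left out. The strain difference in the ratio of covered lengths (0.0065) ranged from -0.0019 to 0.0140, negative without N2 replicate 2, an alternative added after the data were seen. There were 43 *glp-4(bn2)*-only members by summit windows, a count given without the share over all sites, and 10 with calls in all 3 samples. Each domain alone held 101 members, 25 of them N2-only in the left, with 15 N2-only and 5 *glp-4(bn2)*-only in the right. With 1 sample left out the domains differed from the rest of IV by -96.0 to -88.5 kb per Mb and by 8.80 to 9.53 percentile points, each at p = 0.0625 by the exact sign-flip permutation test, the smallest that 5 samples allow. N2-only members then numbered 33 to 46, *glp-4(bn2)*-only members 11 to 18, and the N2-only excess was 0.279 to 6.43 points. The named strain-only sites could not turn round when peaks or samples were removed, as the other strain had no peak there. The named leaning sites did not turn round either. They were chosen without overlap between the strains, which leaves little room for a reversal when 1 sample is left out.

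Same-numbered samples did not deviate together (correlations -0.0366, -0.0614 and -0.0147 over 3578 sites), and pairs of other numbers gave -0.0475 to 0.0824. The labels do not say whether equal numbers mark a shared culture or preparation, and these correlations cannot decide it. With a replicate block the strain differences were -14.3 kb per Mb (p = 0.25, the smallest that 3 pairs allow, exact), 0.852 points (p = 0.5) and a ratio of 0.0065 (p = 0.5).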
